A study of Homo sapiens with 33 samples.

Results

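The genes described here are 10 genes of the extracellular matrix, namely FN1, SPARC, POSTN, TNC, THBS1, THBS2, SPP1, FBN1, FBN2 and LOX, taken by symbol from a table of 56470 gene symbols, in which all 10 have a row. RNA-seq libraries were made daily from the HNSCC (head and neck squamous cell carcinoma) cell lines SCC1, SCC6 and SCC25. Each line received 100 nM cetuximab, an antibody that blocks EGFR, for days 1 to 5, or PBS, the vehicle, for days 0 to 5. The table holds 33 libraries, 1 for each day of a line and treatment, so the 5 days of a treatment stand in for replicates and the p-values measure the spread between days. These are cultured tumour cells, without stroma. No SCC6 cetuximab library is labelled day 1 while a pair is labelled day 2, and the members of that pair are called 2a and 2b.

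Matricellular proteins are secreted into the matrix, where they do not carry load but bind cell surface receptors, growth factors and proteases. Fibronectin and the fibrillins, in contrast, form the fibres themselves, and lysyl oxidase crosslinks collagen and elastin. In carcinomas these genes are known as products of stromal fibroblasts and of tumour cells with mesenchymal traits, and several of them are widely used as markers of the epithelial-mesenchymal transition (EMT). The study drew FBN1, SPARC, POSTN and THBS2 in SCC1, FBN1, FN1 and SPARC in SCC6 and FN1, FBN1 and SPARC in SCC25 among its EMT genes from these same libraries, so their changes below are not independent evidence of the direction.

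The sequences just upstream of 5 of the genes are shown because their promoter windows hold the GGAATG or CRE letters described with them. Each window holds the 250 bases before the transcription start that RefSeq gives on GRCh38.p14, written 5′ to 3′ on the strand of the gene. Capitals mark matches on either strand to the letters bound by 3 groups of factors and by the basal machinery. For AP-1 factors the letters were TGANTCA. For CREB at the cyclic AMP response element (CRE) they were TGACGTCA. For TEAD factors they were GGAATG, and for the core promoter box that binds TBP they were TATAAA.
FN1 (chr2:215436069-215436318, minus strand): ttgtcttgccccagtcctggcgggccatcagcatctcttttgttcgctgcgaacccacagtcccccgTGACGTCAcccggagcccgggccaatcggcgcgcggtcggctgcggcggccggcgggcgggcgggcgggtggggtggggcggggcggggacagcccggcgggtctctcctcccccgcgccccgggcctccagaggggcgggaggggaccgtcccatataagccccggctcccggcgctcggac
SPARC (chr5:151686916-151687165, minus strand): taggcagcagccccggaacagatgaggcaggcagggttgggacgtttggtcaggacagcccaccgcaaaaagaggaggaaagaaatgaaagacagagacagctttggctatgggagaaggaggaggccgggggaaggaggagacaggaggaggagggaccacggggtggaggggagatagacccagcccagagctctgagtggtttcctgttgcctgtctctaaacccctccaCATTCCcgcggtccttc
FBN1 (chr15:48644971-48645220, minus strand): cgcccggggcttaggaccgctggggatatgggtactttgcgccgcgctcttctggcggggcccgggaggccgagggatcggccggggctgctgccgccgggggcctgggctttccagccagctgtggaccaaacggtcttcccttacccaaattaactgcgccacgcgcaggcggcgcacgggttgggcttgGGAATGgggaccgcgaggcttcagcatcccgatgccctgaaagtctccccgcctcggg
THBS1 (chr15:39580829-39581078, plus strand): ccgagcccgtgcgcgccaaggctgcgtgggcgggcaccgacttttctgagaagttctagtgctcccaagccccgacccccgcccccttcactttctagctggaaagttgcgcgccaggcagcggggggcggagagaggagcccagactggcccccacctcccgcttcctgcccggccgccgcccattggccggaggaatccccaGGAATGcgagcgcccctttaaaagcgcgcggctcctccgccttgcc
THBS2 (chr6:169253847-169254096, minus strand): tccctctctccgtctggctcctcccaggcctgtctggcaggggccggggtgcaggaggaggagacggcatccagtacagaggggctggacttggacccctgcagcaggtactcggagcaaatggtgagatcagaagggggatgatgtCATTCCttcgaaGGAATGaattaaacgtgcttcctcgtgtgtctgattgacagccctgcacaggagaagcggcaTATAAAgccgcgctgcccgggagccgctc

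The windows searched reach from 250 bases before to 50 bases after the start, and all 10 genes had at least 1. GGAATG was found in 4 of the 10 genes, namely SPARC, THBS1, THBS2 and FBN1, and in 14.0% of all 35116 promoter windows. The CRE letters were found in FN1 alone and in 1.85% of all windows, and the AP-1 letters in POSTN alone and in 7.71%. TATAAA was found in POSTN and THBS2 and in 11.5% of all windows. These matches describe letters and not binding, and an absent match says only that the letters are not in the window.

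On GRCh37, the build that the submitters' processing notes name, GENCODE places FN1 at chr2:216225163-216300796 on the minus strand with 46 exons in its canonical transcript. SPARC lies at chr5:151040657-151066536, FBN1 at chr15:48700510-48937918, TNC at chr9:117781854-117880486 and POSTN at chr13:38136720-38172981, all on the minus strand. THBS1 lies at chr15:39873280-39891667 and SPP1 at chr4:88896819-88904684 on the plus strand. THBS2 lies at chr6:169615875-169654145, FBN2 at chr5:127593601-127994878 and LOX at chr5:121398890-121414108 on the minus strand. Counts cover whole genes. An exon of another gene on the opposite strand overlaps exons of SPARC, TNC, THBS1, THBS2, SPP1, FBN2 and LOX. The study names a stranded library kit, but whether the counting used strand is not given in the sources used here. Where it did not, reads of the 2 strands cannot be told apart.

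Library totals spanned 28508758 to 80727478 counts, and the deepest libraries were those of cetuximab-treated SCC6 on days 4 and 5. These libraries were sequenced on a flow cell of their own, out of 5 flow cells. All 33 libraries correlated best with the PBS mean of their labelled line. The 12 squamous epithelial markers were each above 3 reads in at least 1 library of every line and treatment, and their summed level under PBS ranged from 3138 to 21690 CPM (counts per 1000000 counts of the library). This is a low bar, which the 12 fibroblast markers described below also passed in SCC25. In SCC6, KRT14, KRT5 and DSG3 were low, at mean log2 CPM of 2.1, 2.8 and 1.0, while KRT17, DSP and CDH1 had 9.9, 10.3 and 9.2. Targets of the ERK pathway, which EGFR feeds, fell in every line, with 12, 13 and 12 of 15 called lower in SCC1, SCC6 and SCC25 and none called higher. Of all genes, 22.1%, 14.6% and 9.5% were called lower and 22.7%, 15.6% and 8.8% higher. In bulk RNA, a change in the share of cells that make a transcript and a change in transcript per cell cannot be told apart.

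Without drug, the 3 lines differed in the RNA levels of these genes. Levels are CPM scaled by TMM, given as mean ± SD of the 5 PBS libraries of days 1 to 5. Between lines, all 10 genes differed for SCC6 against SCC1 (background 69.1% of genes), 8 of 10 for SCC25 against SCC1 (68.4%) and all 10 for SCC25 against SCC6 (72.1%). Most genes of any kind thus differed between the lines, and the sizes of the differences are given below. The lines lie on partly separate flow cells, and line and flow cell cannot be fully told apart under PBS.

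**Figure D1:**
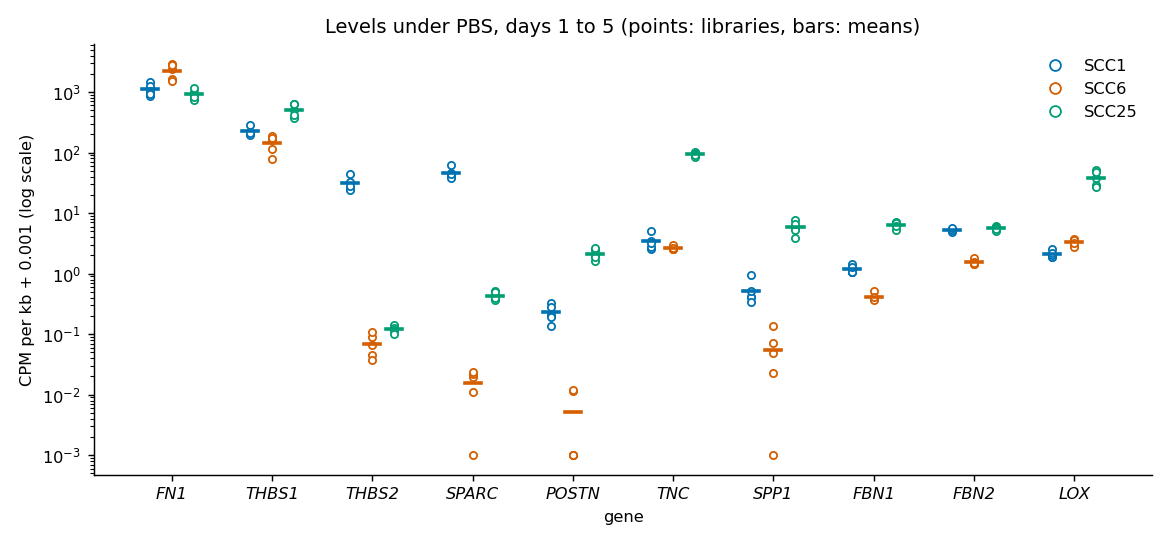
Levels of the 10 genes under PBS on days 1 to 5, in CPM per kb of canonical transcript on a log axis, with a pseudocount of 0.001. Points are libraries and bars are means of 5 libraries. FN1 and THBS1 led in every line, SPARC and THBS2 were high in SCC1 alone, and TNC, LOX, POSTN and SPP1 were highest in SCC25.

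Per kb of canonical transcript, FN1 was the highest of the 10 genes in each line, with 1112 ± 235 CPM per kb in SCC1, 2269 ± 643 in SCC6 and 918 ± 159 in SCC25 (SD, n = 5). THBS1, which binds CD36 and CD47 and activates latent TGF-beta, was the second with 225 ± 35.3, 145 ± 46.4 and 513 ± 120 CPM per kb (SD, n = 5). Below these the order differed by line. SPARC and THBS2 followed in SCC1, at 46.2 ± 9.63 and 30.9 ± 8.13 CPM per kb (SD, n = 5). In SCC25 they were the lowest of the 10 genes, and TNC and LOX followed THBS1 at 93.9 ± 6.59 and 38.7 ± 11.0 CPM per kb (SD, n = 5). In SCC6 no gene other than FN1 and THBS1 exceeded 3.27 CPM per kb.

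SPARC, a collagen-binding glycoprotein of basement membranes, marked SCC1. Its PBS level was 216, 157, 140, 131 and 154 CPM in SCC1 on days 1 to 5, and 1.34, 1.24, 1.43, 1.71 and 1.77 CPM in SCC25. In SCC6 the 5 PBS libraries held 2, 1, 0, 3 and 2 reads, where 3 reads correspond to at most 0.112 CPM in any library. The log2 difference of SCC25 from SCC1 was -6.75 ± 0.17 (SE, adjusted p = 2.0e-15, edgeR quasi-likelihood test). THBS2, an inhibitor of angiogenesis that binds MMP2, had 176 ± 46.4 CPM in SCC1 against 0.388 ± 0.166 in SCC6 and 0.688 ± 0.0833 in SCC25 (SD, n = 5). The libraries of SCC1 lay far above those of the other lines for both genes. The THBS2 difference of SCC25 from SCC6, 0.76 ± 0.31 on the log2 scale (SE, adjusted p = 0.032, edgeR), missed the threshold without PBS day 2 of SCC25 (adjusted p = 0.062) or day 1 (0.12), 2 (0.090) or 3 (0.055) of SCC6.

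TNC, a large hexameric protein of wound and tumour matrix, marked SCC25, with 798 ± 56.0 CPM against 29.1 ± 8.41 in SCC1 and 22.4 ± 1.52 in SCC6 (SD, n = 5). SCC6 and SCC1 differed little in TNC, by -0.36 ± 0.14 on the log2 scale (SE, adjusted p = 0.029, edgeR), and this call was lost without PBS day 5 of SCC1 (adjusted p = 0.094) or day 2 (0.055), 3 (0.053) or 4 (0.050) of SCC6. LOX, the copper enzyme that crosslinks collagen and elastin, had 197 ± 55.7 CPM in SCC25, 16.6 ± 2.18 in SCC6 and 10.7 ± 1.40 in SCC1 (SD, n = 5). POSTN, which helps assemble collagen with tenascin-C and BMP1, had 6.97 ± 1.39 CPM in SCC25 and 0.757 ± 0.251 in SCC1 (SD, n = 5), and 0 to 1 read in each PBS library of SCC6. SPP1, the integrin and CD44 ligand osteopontin, had 9.14 ± 2.29 CPM in SCC25 and 0.815 ± 0.372 in SCC1 (SD, n = 5), and 0 to 8 reads in SCC6.

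FBN1, the main fibrillin of microfibrils, was ordered SCC25 (73.7 ± 8.69 CPM), SCC1 (13.7 ± 2.08) and SCC6 (4.76 ± 0.678; SD, n = 5). FBN2, the fibrillin of developing tissues, had 61.9 ± 3.99 CPM in SCC25, 58.0 ± 2.77 in SCC1 and 17.0 ± 1.75 in SCC6 (SD, n = 5). SCC25 and SCC1 did not differ beyond their spread in FBN2, with a log2 difference of 0.08 ± 0.07 (SE, adjusted p = 0.33, edgeR). Nor did they in FN1, with -0.29 ± 0.18 (SE, adjusted p = 0.17), although with day as a replicate block the FN1 difference was -0.28 with adjusted p = 0.011.

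Under cetuximab, most of the genes that could be tested in SCC6 rose. Of the 10 genes, 8 had enough reads to be tested and 7 rose, namely SPARC, FBN1, TNC, THBS1, FN1, LOX and FBN2, where 15.6% of all genes tested were called higher and 14.6% lower. None of the 8 was called lower. SPARC, at 0 to 3 reads in each PBS library, had enough reads to be tested only through cetuximab and could only come out higher. Its part in the counts and the median here is thus no support for a rise of the set. For the same 7 genes every cetuximab library lay above every PBS library of days 1 to 5, as for 11.4% of genes, and for none did every cetuximab library lie below (8.01% of genes). The median log2 fold change of the 8 genes was 1.66, against 0.0039 over all genes.

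**Figure D2:**
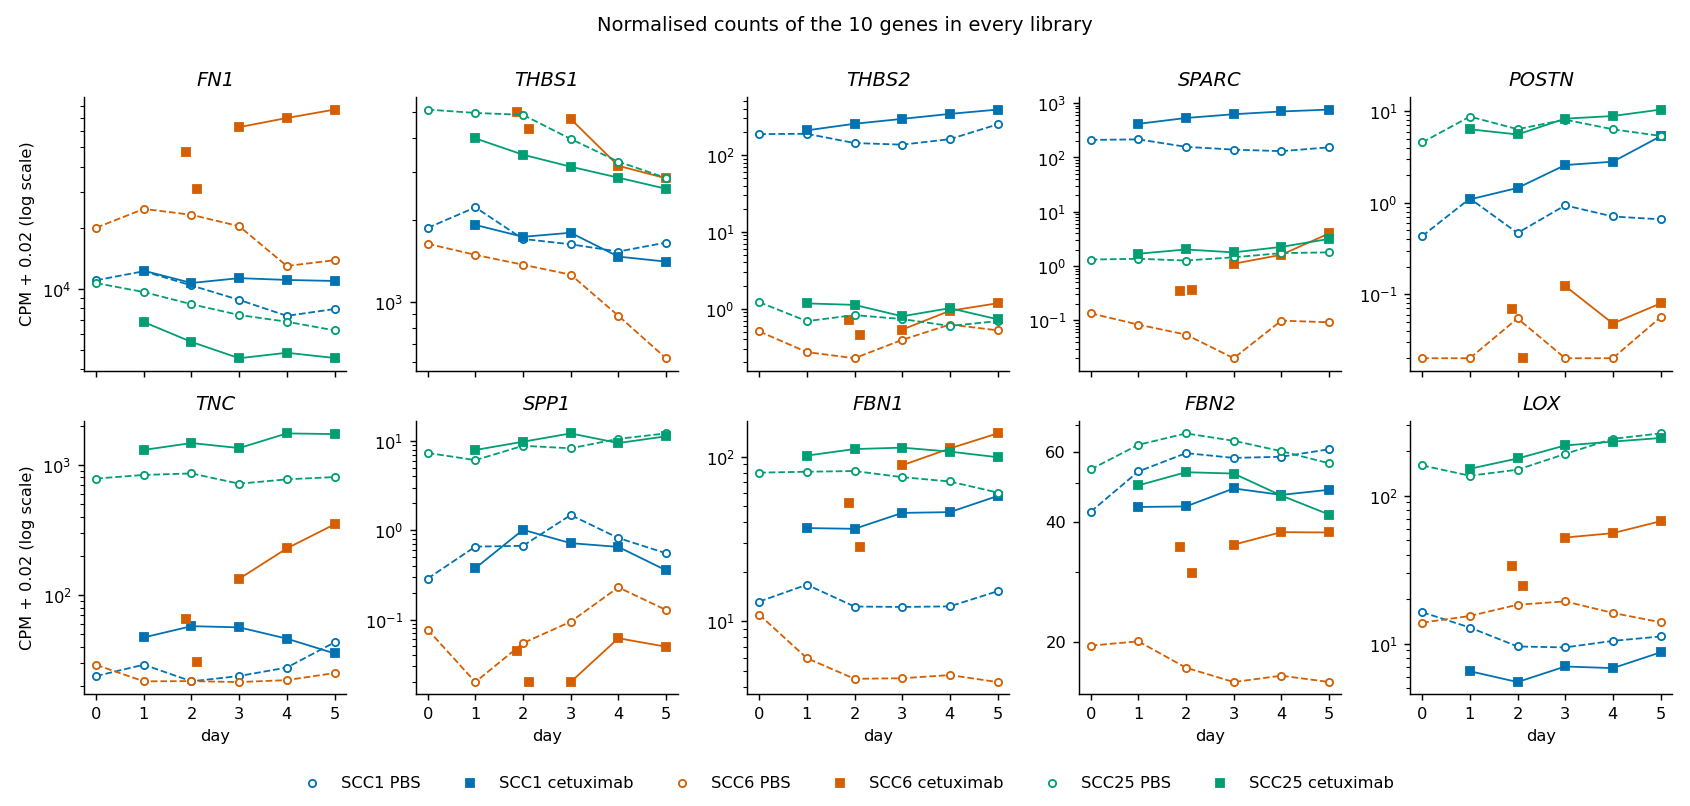
CPM of the 10 genes in all 33 libraries by day, with a pseudocount of 0.02 on a log axis; open circles with dashed lines are PBS and filled squares are cetuximab. In SCC6 the libraries labelled day 2, which share a label, are set side by side at day 2 and not joined. SCC6 cetuximab libraries lie above all PBS libraries of days 1 to 5 of that line for FN1, SPARC, TNC, THBS1, FBN1, FBN2 and LOX.

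FN1, the ligand of integrin alpha5 beta1, was the most abundant of the genes that rose in SCC6. With PBS it had 24810, 23198, 20373, 12956 and 13833 CPM on days 1 to 5. With cetuximab it had 47225 (2a), 31114 (2b), 62960 (day 3), 69893 (day 4) and 76901 CPM (day 5). The lowest cetuximab library was above the highest PBS library, and the log2 fold change was 1.54 ± 0.25 (SE, adjusted p = 0.00088, edgeR). FN1 alone took 1.23 to 2.30% of all counts of a PBS library and 2.96 to 6.89% of a cetuximab library in SCC6.

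**Figure D3:**
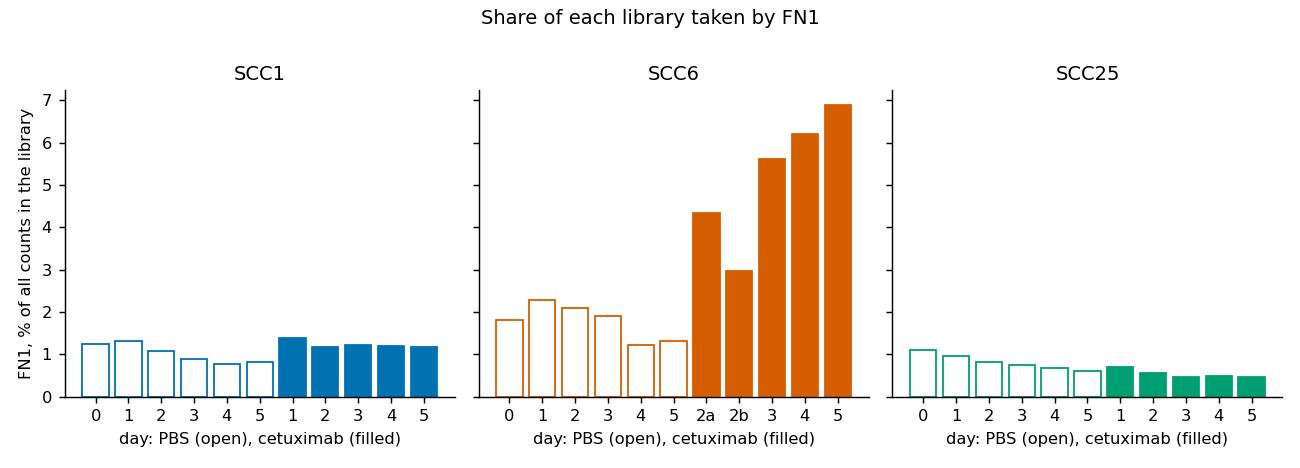
Share of all counts of a library that fell on FN1, in percent, for PBS of days 0 to 5 (open bars) and cetuximab (filled bars, days as labelled). In SCC6 the share was 2.96 to 6.89% with cetuximab and 1.23 to 2.30% with PBS on days 1 to 5, while in SCC25 it was 0.467 to 0.705% and 0.611 to 0.965%.

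FBN1 had 5.94, 4.45, 4.48, 4.69 and 4.25 CPM with PBS on days 1 to 5 of SCC6. With cetuximab it had 52.6 (2a), 28.1 (2b), 88.5, 112 and 138 CPM, for a log2 fold change of 4.07 ± 0.37 (SE, adjusted p = 2.2e-05, edgeR). The mean of the cetuximab libraries was 17.6-fold that of PBS, and the groups were far apart.

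TNC had 21.7, 21.7, 21.4, 22.1 and 25.1 CPM with PBS in SCC6 and 65.8 (2a), 30.4 (2b), 133, 228 and 349 CPM with cetuximab. The PBS libraries were nearly level while the cetuximab libraries were widely spread, and the log2 fold change was 2.78 ± 0.50 (SE, adjusted p = 0.0018, edgeR). THBS1 had 1492, 1372, 1262, 890 and 621 CPM with PBS and 5002 (2a), 4323 (2b), 4718, 3172 and 2853 CPM with cetuximab. THBS1 was lower on days 4 and 5 than before in both arms, and the ratio to PBS of the same labelled day lay between 3.15 and 4.59 for all 5 cetuximab libraries, of which 2a and 2b share the PBS library of day 2. Its log2 fold change was 1.79 ± 0.25 (SE, adjusted p = 0.00033, edgeR).

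SPARC, nearly silent in SCC6, rose from 8 reads in the 5 PBS libraries together to 447 reads in the 5 cetuximab libraries. The cetuximab libraries held 13 (2a), 11 (2b), 42, 114 and 267 reads, or 0.323, 0.343, 1.08, 1.59 and 3.97 CPM. Scaled for depth, the pooled ratio was 34.2, with a 95% exact binomial interval of 17.2 to 79.8 that covers counting error only. The highest of these levels remained below the lowest SPARC level of SCC1, 131 CPM. The fitted log2 fold change, 4.71 ± 0.86 (SE, adjusted p = 0.0018, edgeR), depends on the prior count at such low levels.

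LOX and FBN2 rose as well. LOX ranged from 13.9 to 19.3 CPM with PBS and from 24.5 to 67.2 CPM with cetuximab, with a log2 fold change of 1.43 ± 0.23 (SE, adjusted p = 0.00086, edgeR). FBN2 ranged from 15.8 to 20.01 CPM with PBS and from 29.7 to 37.7 CPM with cetuximab, with 0.98 ± 0.10 (SE, adjusted p = 4.1e-05). THBS2, at 0.207 to 0.603 CPM with PBS and 0.437 to 1.16 CPM with cetuximab, had 0.89 ± 0.34 (SE) and did not pass the test (adjusted p = 0.069). With day as a replicate block it did, at adjusted p = 0.033 with 2a and 0.042 with 2b taken as day 1. It also passed without PBS day 4 (adjusted p = 0.047) or without 2b (0.039). Of 20 alternative fits by edgeR or DESeq2, 5 called it. Over all 20 its log2 fold change ranged from 0.33 to 1.12 and its adjusted p reached 0.52. POSTN held 0 to 1 read per PBS library and 0 to 4 per cetuximab library, and SPP1 0 to 8 and 0 to 3 reads, so neither was tested and no fold is given.

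The SCC6 cetuximab libraries of days 4 and 5 lie alone on their flow cell. Without them 7 of the 10 genes were called, and 7 when flow cell was a covariate. Days 4 and 5 were the highest cetuximab libraries for FN1, FBN1, LOX, TNC and SPARC, so the folds of these genes were smaller without them. Over 20 alternative fits the lowest log2 fold change was 1.29 for FN1, 3.54 for FBN1 and 1.09 for LOX, in place of 1.54, 4.07 and 1.43. The log2 fold change of TNC was 1.75 without these libraries and 1.72 with the covariate, in place of 2.78. That of SPARC was 3.39 and 3.47 in place of 4.71, and 3.93 without cetuximab day 5 alone. Over all genes 5238 were called, 2868 without these libraries and 5322 with the covariate. Without both libraries labelled day 2, 8 were called, THBS2 being the added gene (adjusted p = 0.047). On the flow cell that holds both treatments, the ratio of cetuximab to PBS of the same labelled day was 2.04 (2a), 1.34 (2b) and 3.09 (day 3) for FN1, and 11.8, 6.32 and 19.7 for FBN1. It was 3.03, 1.40 and 6.22 for TNC, 1.84, 1.34 and 2.70 for LOX, 2.01, 1.73 and 2.22 for FBN2, and 3.65, 3.15 and 3.74 for THBS1. Both 2a and 2b were divided by the PBS library of day 2, and either may be day 1.

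In SCC1, 5 genes rose and 2 fell of the 10 tested, where 22.7% of all genes were called higher and 22.1% lower. SPARC, FBN1, POSTN, THBS2 and TNC rose and LOX and FBN2 fell. The groups did not overlap for SPARC and FBN1, which lay above (14.6% of all genes), and for LOX and FBN2, which lay below (16.7%). The median log2 fold change of the 10 genes was 0.52, against 0.021 over all genes.

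SPARC, already high in SCC1, had 216, 157, 140, 131 and 154 CPM with PBS and 417, 535, 627, 704 and 764 CPM with cetuximab on days 1 to 5. Every cetuximab library lay above every PBS library, with the gap widest on the later days, and the log2 fold change was 1.95 ± 0.17 (SE, adjusted p = 3.4e-06, edgeR). FBN1 had 16.6, 12.3, 12.2, 12.3 and 15.2 CPM with PBS and 36.8, 36.4, 45.5, 46.0 and 57.6 CPM with cetuximab. The same-day ratio of FBN1 was above 1 in 5 of 5 days, between 2.21 and 3.79, and the log2 fold change was 1.71 ± 0.14 (SE, adjusted p = 2.0e-06, edgeR).

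POSTN was low in SCC1, at 1.09, 0.448, 0.917, 0.688 and 0.639 CPM with PBS, which came from 20 to 44 reads. With cetuximab it had 1.07, 1.43, 2.56, 2.79 and 5.31 CPM, from 48 to 221 reads. The day 1 libraries were nearly equal and the other days were higher with cetuximab, and the log2 fold change was 1.81 ± 0.40 (SE, adjusted p = 0.0027, edgeR). THBS2 had 189, 143, 137, 161 and 251 CPM with PBS and 210, 255, 296, 343 and 391 CPM with cetuximab. It was higher on 5 of 5 days but the groups overlapped, and the log2 fold change was 0.78 ± 0.18 (SE, adjusted p = 0.0042, edgeR).

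TNC had 29.1, 21.7, 23.8, 27.6 and 43.1 CPM with PBS and 47.1, 57.5, 56.3, 46.1 and 35.5 CPM with cetuximab in SCC1. It was higher with cetuximab on days 1 to 4 and lower on day 5, and the log2 fold change over all days was 0.76 ± 0.18 (SE, adjusted p = 0.0040, edgeR). LOX ranged from 9.42 to 12.8 CPM with PBS and from 5.48 to 8.72 CPM with cetuximab, and fell by 0.61 ± 0.13 on the log2 scale (SE, adjusted p = 0.0017). FBN2 ranged from 53.5 to 60.8 CPM with PBS and from 43.6 to 48.5 CPM with cetuximab, and fell by 0.31 ± 0.05 (SE, adjusted p = 0.00038, edgeR).

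FN1 of SCC1 had 7340 to 12202 CPM with PBS and 10674 to 12272 CPM with cetuximab, and did not pass the test, with a log2 fold change of 0.28 ± 0.12 (SE, adjusted p = 0.067, edgeR). With day as a replicate block it was called (0.31, adjusted p = 0.019), and also without PBS day 1 (0.40, adjusted p = 0.0030). THBS1 (-0.05 ± 0.11, adjusted p = 0.72) and SPP1 (-0.42 ± 0.34, SE, adjusted p = 0.34) overlapped between the treatments.

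In SCC1 only day 5 has both treatments on 1 flow cell. There the ratio of cetuximab to PBS was 4.96 for SPARC, 3.79 for FBN1, 8.30 for POSTN, 1.56 for THBS2, 0.823 for TNC, 0.781 for LOX and 0.791 for FBN2. When flow cell was a covariate 4 genes were called, namely SPARC, FBN1, FBN2 and LOX. POSTN had a log2 fold change of 2.05 (adjusted p = 0.089), while those of THBS2 and TNC were 0.27 (adjusted p = 0.50) and 0.19 (adjusted p = 0.59). For no gene in SCC1 can treatment and flow cell be fully told apart. All cetuximab libraries lie on another flow cell than PBS of days 1 to 4, and the covariate fit rests on PBS of day 5.

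In SCC25 the response was smaller and went both ways. TNC and FBN1 rose and FN1 and FBN2 fell of the 10 genes tested, where 8.8% of all genes were called higher and 9.5% lower. Every cetuximab library lay above every PBS library for TNC and FBN1 (6.69% of all genes) and below for FBN2 (7.87%). The median log2 fold change was 0.16, against 0.0062 over all genes. With library totals in place of TMM, 2261 genes were called higher and 1217 lower, against 1681 and 1815 with TMM, and 5 of the 10 genes were called, SPARC being the added gene.

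TNC, highest in this line, had 837, 859, 716, 774 and 806 CPM with PBS and 1302, 1471, 1346, 1745 and 1724 CPM with cetuximab. The groups were clearly apart, and the log2 fold change was 0.92 ± 0.09 (SE, adjusted p = 9.0e-05, edgeR). FBN1 had 80.9, 81.7, 75.0, 70.6 and 60.4 CPM with PBS and 101, 111, 113, 107 and 99.1 CPM with cetuximab, a log2 fold change of 0.53 ± 0.08 (SE, adjusted p = 0.0012).

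FN1 went the other way in SCC25. It had 9624, 8379, 7413, 6866 and 6221 CPM with PBS and 6840, 5455, 4530, 4821 and 4544 CPM with cetuximab. It was lower on 5 of 5 days, at a same-day ratio of 0.611 to 0.730, although day 1 with cetuximab lay above PBS of day 5. The log2 fold change was -0.56 ± 0.14 (SE, adjusted p = 0.016, edgeR). FBN2 ranged from 56.1 to 66.7 CPM with PBS and from 41.7 to 53.3 CPM with cetuximab, with -0.35 ± 0.07 (SE, adjusted p = 0.0076).

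SPARC in SCC25 had 1.24 to 1.77 CPM with PBS and 1.67 to 3.14 CPM with cetuximab, a log2 fold change of 0.53 ± 0.19 (SE) that missed the threshold (adjusted p = 0.068, edgeR) and was called with day as a replicate block (0.51, adjusted p = 0.022), or without cetuximab day 1 (adjusted p = 0.040) or day 3 (0.042). THBS1 had 2861 to 4963 CPM with PBS and 2611 to 4001 CPM with cetuximab, with -0.31 ± 0.16 (SE, adjusted p = 0.19), and was called lower with the block (-0.30, adjusted p = 0.0067). THBS2, POSTN, SPP1 and LOX had log2 fold changes of 0.46 ± 0.18, 0.17 ± 0.18, 0.14 ± 0.17 and 0.06 ± 0.18 (SE) and were not called.

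Days 1 and 2 of SCC25 have both treatments on 1 flow cell. There the ratio was 1.56 and 1.71 for TNC, 1.25 and 1.36 for FBN1, 0.711 and 0.651 for FN1, and 0.791 and 0.799 for FBN2. When flow cell was a covariate TNC, FBN1 and THBS2 (0.72, adjusted p = 0.047) were called, while FN1 (-0.32, adjusted p = 0.21) and FBN2 (-0.26, adjusted p = 0.10) were not.

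**Figure D4:**
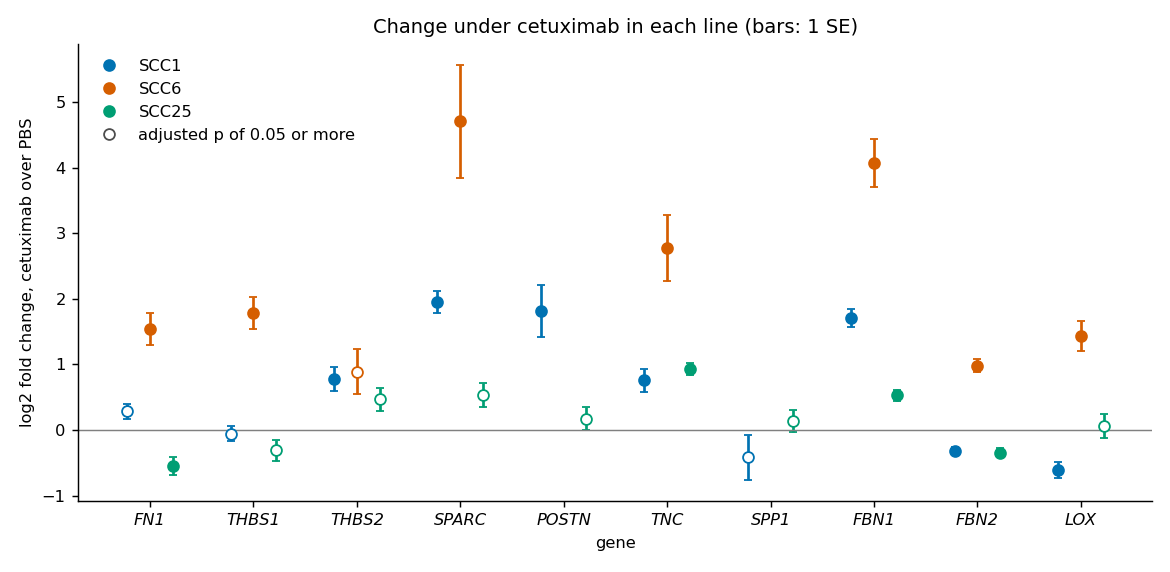
Log2 fold change of cetuximab over PBS with 1 SE for each gene and line, from 5 libraries per treatment; filled points have an adjusted p under 0.05. SCC6 lies above SCC1 and SCC25 for SPARC, FBN1, TNC, THBS1, FN1, LOX and FBN2, and POSTN and SPP1 have no point in SCC6 because they were too low to test. The SPARC point of SCC6 rests on 8 PBS reads.

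Whether the change differs between lines was tested with line-by-treatment terms over the 30 libraries of days 1 to 5. The change differed among the lines for 8 of the 10 genes, all but THBS2 and SPP1, where 26.1% of all genes were called. Between SCC6 and SCC1 it differed for 7 genes, FN1, SPARC, TNC, THBS1, FBN1, FBN2 and LOX, each with the higher value in SCC6 (19.3% of genes called in either direction). Between SCC25 and SCC6, which shares the SCC6 libraries, it differed for FN1, SPARC, TNC, THBS1, FBN1, FBN2 and LOX, each with the higher value in SCC6 (17.5%). Between SCC25 and SCC1 it differed for 2 genes, FBN1 and POSTN (8.52%). For SPARC the change in SCC6 rests on 8 PBS reads, so the size of its differences depends on the prior count. Its mean level rose from 0.050 to 1.46 CPM in SCC6 and from 159 to 609 CPM in SCC1.

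FBN2 was the clearest of these, since it rose in SCC6 and fell in both other lines. The change in SCC6 exceeded that in SCC1 by 1.32 ± 0.10 on the log2 scale (SE, adjusted p = 3.3e-10, edgeR), and those in SCC25 and SCC1 differed by -0.02 ± 0.10 (SE, adjusted p = 0.96). LOX, which rose in SCC6 and fell in SCC1, differed by 2.07 ± 0.29 (SE, adjusted p = 4.4e-06). FN1, which rose in SCC6 and fell in SCC25, differed by -2.11 ± 0.27 for SCC25 against SCC6 (SE, adjusted p = 2.4e-06), and by -0.83 ± 0.27 for SCC25 against SCC1 (SE, adjusted p = 0.051). For THBS1 the change in SCC6 exceeded that in SCC1 by 1.87 ± 0.28 (SE, adjusted p = 1.0e-05). TNC was called higher in all 3 lines, though in SCC1 not when flow cell was a covariate (0.19, adjusted p = 0.59, edgeR). Its change was larger in SCC6 than in SCC1 by 2.05 ± 0.47 (SE, adjusted p = 0.0023), and SCC25 and SCC1 differed by 0.18 ± 0.46 (SE, adjusted p = 0.89). FBN1 also rose in all 3 lines, in the order SCC6, SCC1 and SCC25, with SCC6 above SCC1 by 2.39 ± 0.33 (SE, adjusted p = 4.4e-06) and SCC25 below SCC1 by 1.17 ± 0.32 on the log2 scale (SE, adjusted p = 0.017). In THBS2 the test of the difference gave adjusted p = 0.64. When flow cell was a covariate 7 of the 10 genes were called, POSTN being lost (adjusted p = 0.068), and without the SCC6 cetuximab libraries of days 4 and 5 TNC was lost (adjusted p = 0.068). With day as a replicate block SPP1 was called too (adjusted p = 0.034).

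The study followed the cells daily, so the change on days 4 and 5 was set against that on days 1 to 3. In SCC6, the change of FN1 was 1.01 ± 0.20 on days 1 to 3 and 2.37 ± 0.25 on days 4 and 5 on the log2 scale (SE), and that of TNC 1.78 ± 0.40 and 3.53 ± 0.52. FBN1 had 3.46 ± 0.35 and 4.72 ± 0.45, and LOX 1.02 ± 0.23 and 1.95 ± 0.29 (SE), while THBS1 had 1.73 ± 0.13 and 1.91 ± 0.16. All 7 genes that rose were called in both periods, where 10.7% and 18.9% of all genes were called higher and 9.61% and 18.9% lower. Among the 7, SPARC could again only be called higher, since its PBS libraries were nearly empty.

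In SCC1, FN1 was not called on days 1 to 3 (0.13 ± 0.10, SE, adjusted p = 0.39) but was called higher on days 4 and 5 (0.53 ± 0.13, SE, adjusted p = 0.0088, edgeR). POSTN was likewise called on days 4 and 5 (2.61 ± 0.48, adjusted p = 0.0020) and not before (1.04 ± 0.40, SE, adjusted p = 0.070). TNC was called on days 1 to 3 (1.11 ± 0.17, adjusted p = 0.00067) and not on days 4 and 5 (0.21 ± 0.20, SE, adjusted p = 0.49), as was LOX (-0.74 ± 0.15, adjusted p = 0.0043, and -0.47 ± 0.19, SE, adjusted p = 0.079). In SCC1, 4 of the 10 genes were called higher and 2 lower on days 1 to 3 (14% and 15.6% of all genes), and 5 higher and 1 lower on days 4 and 5 (14.5% and 15.4%). In SCC25, 2 were called higher and 2 lower on days 1 to 3 (4.07% and 3.77% of all genes), and 2 higher and 1 lower on days 4 and 5 (1.49% and 1.22%), where FN1 was not called (-0.48 ± 0.17, SE, adjusted p = 0.18). A call in 1 period alone does not show that the periods differ, which the next test addresses.

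The difference between the periods passed the edgeR test, with the filter on low counts, for no gene in any line (0% of genes in SCC1, 0% in SCC6 and 0% in SCC25), although 1458, 5626 and 599 genes had an unadjusted p under 0.05. DESeq2 called 31, 2838 and 3 genes. Among the members it called FN1 in SCC6, whose difference was 1.36 ± 0.31 in edgeR (SE, adjusted p = 0.093) and 1.33 in DESeq2 (adjusted p = 0.0049), and which edgeR called without PBS day 1 (adjusted p = 0.034) or day 3 (0.048). Without PBS day 1 of SCC6, 1424 of all genes were called, and 973 without PBS day 3.

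The result also depends on the filter on low counts. Without it edgeR called 202, 3366 and 7 genes in SCC1, SCC6 and SCC25. In SCC6 these included FN1 (1.38, adjusted p = 9.2e-18), TNC (1.75, adjusted p = 5e-15), FBN1 (1.27, adjusted p = 4.2e-06) and LOX (0.94, adjusted p = 0.0020), and in SCC1 SPARC (0.74, adjusted p = 0.0089) and TNC (-0.91, adjusted p = 0.0039). With the filter, TNC in SCC6 differed by 1.74 ± 0.63 (SE, adjusted p = 0.11, edgeR). In SCC1, SPARC differed by 0.74 ± 0.26 (SE, adjusted p = 0.66) and TNC by -0.91 ± 0.26 (SE, adjusted p = 0.65). The cetuximab libraries of days 4 and 5 of SCC6 lie on their own flow cell, so period and flow cell cannot be told apart there. In SCC25, cetuximab of days 1 and 2 lies on another flow cell than cetuximab of days 3 to 5. In SCC1, PBS of day 5 lies on another flow cell than PBS of days 1 to 4. Period and flow cell are thus partly mixed in these lines too.

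With PBS alone, the levels of some genes went with the day over the 6 libraries of days 0 to 5. In SCC6, PBS of days 0 and 1 lies on another flow cell than PBS of days 2 to 5. In SCC1, PBS of day 5 lies on another flow cell than PBS of days 0 to 4. Day and flow cell thus cannot be fully told apart in SCC6 and SCC1, while all PBS libraries of SCC25 share a flow cell. In SCC6, THBS1 fell by 0.27 ± 0.04, FBN1 by 0.24 ± 0.06 and FN1 by 0.17 ± 0.05 per day on the log2 scale (SE, adjusted p = 0.0023, 0.018 and 0.039, edgeR), 3 of the 6 genes tested against 38.3% of all genes. FN1 was not called without PBS day 1 (adjusted p = 0.10), 4 (0.12) or 5 (0.19), nor FBN1 without day 0 (0.34). In SCC25, 5 of 10 were called (13.4% of genes). FN1 fell by 0.16 ± 0.02, THBS1 by 0.18 ± 0.02 and FBN1 by 0.08 ± 0.02 per day, while LOX rose by 0.18 ± 0.03 and SPP1 by 0.16 ± 0.04 (SE, adjusted p of at most 0.015). Without day 5, SPP1 (adjusted p = 0.10) and FBN1 (0.14) were not called. In SCC1 none of the 10 was called by edgeR (3.22% of genes), where 5 had an unadjusted p under 0.05, DESeq2 called FN1 and SPARC, and edgeR called both without day 5 (adjusted p = 0.041 and 0.012).

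Lists of related genes were followed beside the 10. Genes nearly absent with PBS could be tested only if they rose, and genes nearly absent with cetuximab only if they fell. The counts of the lists thus depend partly on the filter. Of 24 other matricellular genes, 15 were tested in each line, and 8 rose and 2 fell in SCC1, 9 rose and 1 fell in SCC6, and 1 rose and 2 fell in SCC25. Their median log2 fold changes were 0.43, 0.75 and 0.08, against 0.021, 0.0039 and 0.0062 over all genes. The shares called higher were 53.3%, 60% and 6.67%, where 22.7%, 15.6% and 8.8% of all genes were, and the shares called lower 13.3%, 6.67% and 13.3%, where 22.1%, 14.6% and 9.5% were. In SCC25 the list thus lay near all genes. CTGF and CYR61, ligands of integrins that were picked out after their values were seen, fell in SCC1 (-0.94, adjusted p = 5.5e-06, and -0.38, adjusted p = 0.019) and rose in SCC6 (1.08, adjusted p = 0.0099, and 0.70, adjusted p = 0.0051, edgeR).

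Of 24 genes of microfibrils, elastic fibres and lysyl oxidase activity, 8 of 19 tested rose and 4 fell in SCC1, 9 of 15 rose and none fell in SCC6, and 1 of 21 rose and 1 fell in SCC25. The shares called higher were 42.1%, 60% and 4.76%, against 22.7%, 15.6% and 8.8% of all genes. The shares called lower were 21.1%, 0% and 4.76%, against 22.1%, 14.6% and 9.5% of all genes. BMP1, the protease that activates lysyl oxidase and trims procollagen, rose in SCC1 from 23.8 ± 2.51 to 56.2 ± 14.7 CPM (SD, n = 5), a log2 fold change of 1.26 ± 0.16 (SE, adjusted p = 4.1e-05 in edgeR's test). FBLN5, which helps deposit elastin on microfibrils, rose in SCC6 from 0.520 ± 0.142 to 6.33 ± 4.08 CPM (SD, n = 5; adjusted p = 0.00028 in edgeR's test). LTBP1, which ties latent TGF-beta to fibrillin, fell in SCC25 from 51.3 ± 3.65 to 36.3 ± 0.581 CPM (SD, n = 5), and SPOCK1, a relative of SPARC, from 132 ± 12.7 to 87.8 ± 15.6 CPM. These genes were picked for the line named. BMP1 was also called higher in SCC6 (log2 fold change 1.66, adjusted p = 0.0011, edgeR). LTBP1 (0.92) and SPOCK1 (0.59) were called higher in SCC6, and LTBP1 also in SCC1 (0.84).

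**Figure D5:**
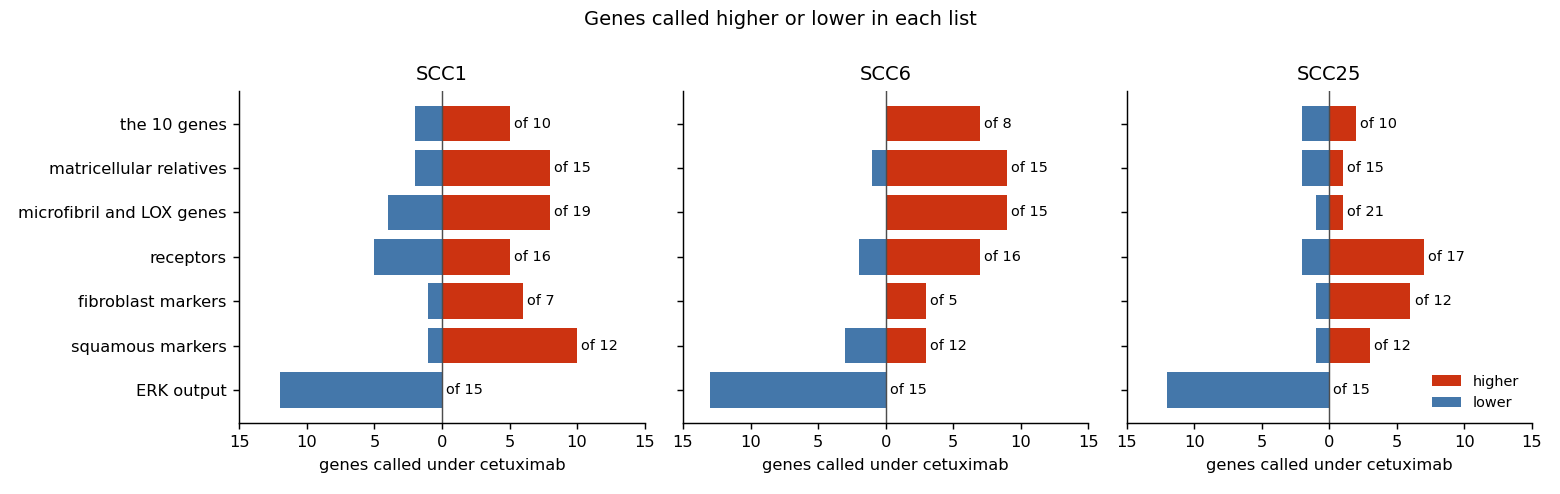
Number of genes called higher (right) or lower (left) under cetuximab in each list and line, with the number tested beside each bar. In SCC6, 9 of 15 tested microfibril and lysyl oxidase genes were higher and none lower, against 1 of 21 higher and 1 lower in SCC25. Of all genes, 15.6% were called higher and 14.6% lower in SCC6, and 8.8% and 9.5% in SCC25.

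Of 19 receptors of these proteins, 5 rose and 5 fell of 16 tested in SCC1, 7 rose and 2 fell of 16 in SCC6, and 7 rose and 2 fell of 17 in SCC25. The shares called higher were 31.2%, 43.8% and 41.2%, against 22.7%, 15.6% and 8.8% of all genes. The shares called lower were 31.2%, 12.5% and 11.8%, against 22.1%, 14.6% and 9.5% of all genes. In SCC1 the fibronectin receptor subunit ITGA5 fell from 401 ± 80.8 to 130 ± 10.6 CPM and ITGA3 from 1284 ± 176 to 579 ± 55.8 CPM, while ITGB8, which activates TGF-beta with ITGAV, rose from 10.2 ± 3.18 to 38.0 ± 6.91 CPM (SD, n = 5). ITGB3, a partner of ITGAV that binds several of the 10 proteins, rose from 1.04 ± 0.194 to 8.57 ± 3.92 CPM in SCC6 and from 10.8 ± 2.21 to 20.1 ± 5.13 CPM in SCC25 (SD, n = 5). CD44, the receptor of hyaluronan and osteopontin, fell in SCC6 from 921 ± 135 to 643 ± 127 CPM, and SDC4 from 599 ± 40.1 to 438 ± 22.6 CPM (SD, n = 5). CD36, a receptor of thrombospondin, rose in SCC25 from 28.4 ± 5.65 to 62.8 ± 13.1 CPM (SD, n = 5). These receptor changes all passed edgeR's test.

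Markers of fibroblasts, which make the same proteins in tissue, were called higher more often than lower in each line, also in SCC25, where 2 of the 10 genes rose and 2 fell. Of 12 markers, 6 rose and 1 fell of 7 tested in SCC1, 3 rose and none fell of 5 in SCC6, and 6 rose and 1 fell of 12 in SCC25. Markers nearly absent with PBS could be tested only if they rose, so the SCC1 and SCC6 counts lean toward rises. This may hold for DCN in SCC1 (log2 fold change 2.88, mean log2 CPM -0.71) and PDGFRB in SCC6 (5.60, mean log2 CPM 1.03). Of all genes, 22.7%, 15.6% and 8.8% were called higher and 22.1%, 14.6% and 9.5% lower. Their summed level ranged from 65.3 to 84.3 CPM with PBS and from 105 to 232 CPM with cetuximab in SCC1, from 5.45 to 7.21 and from 12 to 124 CPM in SCC6, and from 191 to 241 and from 304 to 475 CPM in SCC25. THY1 stayed at 3 reads or fewer in every library of days 1 to 5 of SCC1 and SCC6, and COL3A1 did so in their PBS libraries. Of 10 leukocyte and endothelial markers, none rose and 1 fell in each line, of 5, 2 and 5 tested. The part of other cells in the changes of the 10 genes was not tested. Squamous markers also moved, with 10 of 12 higher and 1 lower in SCC1, 3 higher and 3 lower in SCC6, and 3 higher and 1 lower in SCC25.

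The genes most like each member were taken from the correlation of log2 CPM over the 30 libraries of days 1 to 5, with the mean of each line removed. The libraries share treatment, day and flow cell, so these values are descriptions. FBN1 was followed most closely by CYTH3 (r = 0.98) and PXDC1 (r = 0.97), SPARC by EPHX1 (r = 0.97) and MTMR3 (r = 0.96), and TNC by FRAS1, a basement membrane protein (r = 0.95), and SEPT6 (r = 0.95). FN1 was followed by NOTCH2 (r = 0.94) and MN1 (r = 0.93), and FBN2 by TRAM2 (r = 0.94). THBS1 was followed by LPCAT2 and MOB3B (r = 0.92 each) and LOX by SLC7A1 (r = 0.92) and KRT16P6 (r = 0.91). The values were lower for THBS2 with CTSH (r = 0.89) and C1R (r = 0.88), for POSTN with SLC22A5 (r = 0.85) and FAM76A (r = 0.84), and for SPP1 with OSGIN2 (r = 0.705) and MYZAP (r = 0.696).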

How the data were processed

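Bulk RNA-seq was measured in 33 libraries of SCC1, SCC6 and SCC25. The authors quantified transcripts with Salmon (version 0.8.2 in the submitters' processing notes, which name GRCh37/hg19) and imported them with tximport, and the deposited values are estimated counts per gene symbol, not normalised. The annotation is not given in the sources used here. Counts were rounded to whole numbers and fitted in R 4.3.3 with edgeR 4.0.16 (filterByExpr, TMM, quasi-likelihood F test, two-sided), with Benjamini-Hochberg adjustment over all genes tested and calls at 0.05. CPM were scaled by TMM over all 33 libraries. Alternatives were DESeq2 1.42.0, its size factors, library totals, no filter, PBS of day 0 added, flow cell as a covariate, day as a block and leaving out each library, and, added after the data were seen, 2 removals of SCC6 libraries and the day block for the periods. Library totals of 28508758 to 80727478 counts set the precision, and genes with too few reads for filterByExpr were not tested.

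Libraries of the same line share the labelled day, so the day pairs the treatments. After removal of group means, same-day libraries correlated at 0.06 to 0.189 in SCC1 and 0.107 to 0.221 in SCC25, and at 0.227, -0.065 and 0.081 on days 3 to 5 of SCC6. Libraries 2a and 2b correlated at 0.237 and 0.287 with PBS of day 2 and at -0.257 and -0.219 with PBS of day 1. Both share a flow cell with PBS of day 2, while PBS of day 1 lies on another. Day and flow cell cannot be told apart in these values, which do not settle the day of 2a or 2b. Scripts were tested on simulated data. The 10 genes and all lists were chosen with earlier results of these data known. Beside the 10, the text names, over the lists of relatives, microfibril genes and receptors, the 2 largest rises and 2 largest falls among called genes per line (mean log2 CPM 1 or more), and the 2 genes most like each member (candidates: mean log2 CPM 3 or more), of which 1 is not reported here. Gene positions came from GENCODE on GRCh37 and promoter windows from RefSeq on GRCh38.p14, each used only in its own build.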

Additional observations from a re-analysis of the deposited data

Results flagged for a closer look

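The change under cetuximab differed among the lines for 8 of the 10 genes, by the edgeR test of the line-by-treatment terms. The adjusted p was 3.3e-06 for FN1, 0.0016 for SPARC, 0.014 for POSTN, 0.0022 for TNC, 1.3e-06 for THBS1, 2.1e-08 for FBN1, 7.7e-11 for FBN2 and 9.4e-06 for LOX.

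Of 60 groups of 5 libraries, 4 held a library far from the others, where chance alone flags about 1 group in 20. TNC in SCC6 with PBS was 25.1 CPM on day 5, while the other days ranged from 21.4 to 22.1 CPM. THBS1 in SCC1 with PBS was 2231 CPM on day 1, against 1534 to 1707 CPM on the other days, and without that library its log2 fold change was 0.04 in place of -0.05. SPP1 in SCC1 with PBS was 1.46 CPM on day 3, from 70 reads, against 0.533 to 0.799 CPM. FBN1 in SCC6 with PBS was 5.94 CPM on day 1, against 4.25 to 4.69 CPM.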

How the results depend on the processing

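Days stand in for replicates, flow cells are partly nested in lines and treatments, and the cause of a change with a setting was not tested. When flow cell was a covariate, 4 in place of 7 genes were called in SCC1 (4197 in place of 8061 of all genes), 3 in place of 4 in SCC25 (1417 in place of 3496) and 7 in place of 8 for the line-by-treatment terms (3080 in place of 5586). Under it, uncalled values changed sign, to 0.029 for THBS1 and 0.20 for SPP1 in SCC1 and to -0.22 for POSTN, -0.041 for SPP1 and -0.24 for LOX in SCC25. The difference between periods called 0 of the 10 genes in SCC1 and SCC6, but without the filter on low counts 2 and 4, and in SCC6 with DESeq2 1. PBS by day in SCC1 called 0 of the 10 genes, but 2 with DESeq2 (1528 in place of 526 of all genes) and 1 without the filter.

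Leaving out each library in turn gave 0 to 1 genes for the SCC6 periods (0 to 1424 of all genes, with 1424 and 973 without PBS day 1 and 3), 0 to 2 for SCC1 PBS by day and 3 to 5 for SCC25 PBS by day. It gave log2 fold changes of -0.11 to 0.043 for THBS1 in SCC1 and -0.036 to 0.20 for LOX in SCC25, both uncalled. For cetuximab against PBS it gave 7 to 8 genes in SCC1, 7 to 8 in SCC6 and 4 to 5 in SCC25. Of all genes in SCC25, 2193 to 4006 were called, with 2204 without PBS day 2, 2278 without PBS day 3, 2193 without cetuximab day 4 and 2221 without cetuximab day 5. For PBS by day, all genes called ranged from 25 to 1732 in SCC1 (98, 25, 298, 267, 57 and 1732 without days 0 to 5 in turn), from 2160 to 6902 in SCC6 (2160, 3780 and 3296 without day 0, 1 and 5) and from 1223 to 2480 in SCC25 (1223 and 1291 without day 0 and 5).

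With day as a replicate block, 8 genes were called in SCC1, FN1 being added, 8 in SCC6 under both assignments of day 1, THBS2 being added, and 6 in SCC25, SPARC and THBS1 being added. FN1 was added for SCC25 against SCC1 under PBS and SPP1 for the line-by-treatment terms, and the block removed no call of the 10 genes in the comparisons where it was fitted. For the difference between periods the block, added after the data were seen, called 0 genes by edgeR in each line and under both assignments of day 1, although 1833 genes in SCC1, 6263 (2a as day 1) and 5077 (2b) in SCC6 and 724 in SCC25 had an unadjusted p under 0.05 (in SCC6, FN1 had adjusted p = 0.059 with 2a as day 1 and 0.15 with 2b). No paired analysis was possible for PBS by day because it holds 1 library a day.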
